A study of Mus musculus with 12 samples.

Results

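The genes described are the subunits of the activins and inhibins measured in the liver of db/db mice given molecular hydrogen, with the 2 follistatins that bind them. They are Inhba, Inhbb, Inhbc and Inhbe, which encode the beta subunits A, B, C and E, Fst, which encodes follistatin, and Fstl3, which encodes follistatin-like 3. All probes with a RefSeq record of a listed gene were taken, which gave 1 probe for each of the 6 genes among 20283 genes with a named probe. The family was selected on a readout of these arrays, the rise of Inhbb between 1 and 7 days of gavage. The values of Inhbb at 1 and 7 days are therefore a description with no test, as are the differences of all 6 genes between those days.

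Each of the 12 arrays compared RNA of treated livers, in Cy5, with RNA of control livers, in Cy3. Both channels came from male db/db mice, 8 weeks old by the labels, which lack a working leptin receptor and become obese and diabetic. Treated mice of 9 arrays received MgH2, a solid that releases H2 on contact with water, by stomach gavage once a day for 1, 3 or 7 days (3 arrays each), and the study's methods name Mg(OH)2 as the control. The labels give 0.9 mg/kg as the MgH2 dose. Treated mice of the remaining 3 arrays drank water with 0.8 mM dissolved H2 for 14 days, against control mice given water without it. Each channel held a pool of RNA from 3 mice by the methods, so the spread between arrays is a spread between pools. The model has no mouse with a working leptin receptor in either channel.

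Activins are dimers of beta subunits and belong to the TGF-beta superfamily, and inhibins pair a beta subunit with the alpha subunit encoded by Inha. An activin binds a type II receptor, which recruits a type I receptor, and Smad2 and Smad3 are then phosphorylated and enter the nucleus with Smad4. Follistatin and follistatin-like 3 bind activins and keep them from their receptors. In the liver, Inhbc and Inhbe are made mainly by hepatocytes, follistatin is secreted into the circulation, and activin B, the dimer of the B subunit, is known to raise hepcidin through the Smads that also serve bone morphogenetic proteins.

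Between 51.84% and 56.55% of the 43020 spots on an array were clearly brighter than background in each dye, and no array had a saturated spot (0 of 12). Control RNA carried Cy3 on all 12 arrays, so treatment and dye cannot be told apart for any single probe, and a ratio that is alike at all days can hold a dye effect of its probe. The gavage arrays were also not independent of one another. Arrays with the same number had nearly the same Cy3 levels at 1, 3 and 7 days, with a median absolute log2 difference of 0.05525 to 0.07515 over 18397 probes, against 0.09716 to 0.1394 between arrays of different numbers. The Cy3 signal of Hamp, the hepcidin gene, shows this in 1 probe. It was 3724, 3844 and 3936 on the arrays numbered 1, and 14050, 14390 and 13610 on those numbered 2, at 1, 3 and 7 days. The labels list a control for each day, so whether 1 control pool was used at all 3 days is not stated. Values of different gavage days are read here as sharing controls. The main fit took the arrays as independent. A fit with the array number as a block (the replicate block) is given as an alternative. The liver's own markers were present. Of 8 hepatocyte markers, 6 were measured above background on every array and the other two on 11, and their summed log2 ratio stayed between -0.08 and 0.28.

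RefSeq starts were found for 5 of the 6 genes in a table of promoter windows on GRCm38.p6, and the 250 bases before the start were searched. The 3 sequences shown belong to the genes whose mean ratios differed most between 1 and 7 days, Inhbb upward, Inhba downward and Inhbe from above 0 to below it. They run 5′ to 3′ toward the start, and capitals mark exact matches to the motifs given after them.
Inhbb, chr1:119422249-119422498, minus strand: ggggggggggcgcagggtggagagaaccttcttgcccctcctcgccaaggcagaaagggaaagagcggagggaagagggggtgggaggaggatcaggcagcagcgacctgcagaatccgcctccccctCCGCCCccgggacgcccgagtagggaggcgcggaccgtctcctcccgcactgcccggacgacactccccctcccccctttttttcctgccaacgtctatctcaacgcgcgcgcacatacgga
Inhba, chr13:16011601-16011850, plus strand: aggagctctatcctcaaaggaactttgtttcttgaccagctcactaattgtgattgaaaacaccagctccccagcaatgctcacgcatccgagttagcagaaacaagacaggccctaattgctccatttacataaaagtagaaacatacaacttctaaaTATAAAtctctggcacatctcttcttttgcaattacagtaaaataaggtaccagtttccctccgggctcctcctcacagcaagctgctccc
Inhbe, chr10:127351849-127352098, minus strand: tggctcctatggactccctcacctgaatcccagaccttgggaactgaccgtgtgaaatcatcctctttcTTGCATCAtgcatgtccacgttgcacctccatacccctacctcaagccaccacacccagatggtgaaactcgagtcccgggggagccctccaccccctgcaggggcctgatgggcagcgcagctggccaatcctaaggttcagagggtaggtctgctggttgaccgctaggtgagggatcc
The window of Inhbb was rich in G and C (68%), that of Inhba was not (43.2%), and that of Inhbe lay between them (58.8%). The start of Inhba in this table is one of its annotated starts. On either strand, Inhbb held 1 GC box (GGGCGG), 122 bases before the start, which 32.7% of 32851 windows of this length also held. Inhba held 1 TATA box (TATAAA), 91 bases before the start, against 12.4% of windows. Inhbe held 1 C/EBP-ATF site (TGATGNAA), 181 bases before the start, against 3.45% of windows. Fstl3, not shown, held 4 GC boxes, some of them overlapping, and 1 TATA box. The other motifs searched were the cyclic AMP response element (TGACGTCA, 1.55% of windows) and its first letters alone (TGACG, 17.8%), the FOXO site (GTAAACA, 3.17%), the E-box (CACGTG, 6.02%) and the palindromic Smad box (GTCTAGAC, 0.167%), and none of them occurred in the 5 windows. A match is a match of letters and not a measured binding site.

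Inhbb, the B subunit, had the highest mean ratio of the members at 3, 7 and 14 days. At 1 day its log2 ratio of treated to control was -0.05, 0.23 and -0.16 on the 3 arrays, a mean of 0.01 ± 0.20 (SD, n = 3). At 3 days it was 0.42, 1.32 and 0.63, and at 7 days 1.39, 1.20 and 1.41. At 14 days of H2-water it was 0.32, 0.15 and 0.03. All 3 arrays at 3 days lay above all 3 at 1 day, the lowest array at 7 days lay below the highest at 3 days, and the arrays at 14 days overlapped those at 1 day.

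The mean of Inhbb was 0.79 ± 0.47 (SD, n = 3) at 3 days, a 1.73-fold higher level in treated than in control livers. It was 1.33 ± 0.11 at 7 days, 2.52-fold, and 0.17 ± 0.15 at 14 days, 1.12-fold. In order of their means, the days ran 7, 3, 14 and 1, and neither 7 and 3 days nor 14 and 1 day were separate in all their arrays. The test against 0 at 3 days, on arrays that the selection did not name, gave an adjusted p of 0.004587 (SE 0.14, limma), with higher levels on 3 of 3 arrays. It was not independent of the selection, because the Cy3 signals at 3 days nearly repeat those at 1 and 7 days. At 14 days the adjusted p was 0.5359. Inhbb ranked 40 of 19414 probes from the highest mean ratio at 3 days and 5 of 19455 at 7 days, and the latter rank is part of why it was chosen.

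**Figure D1:**
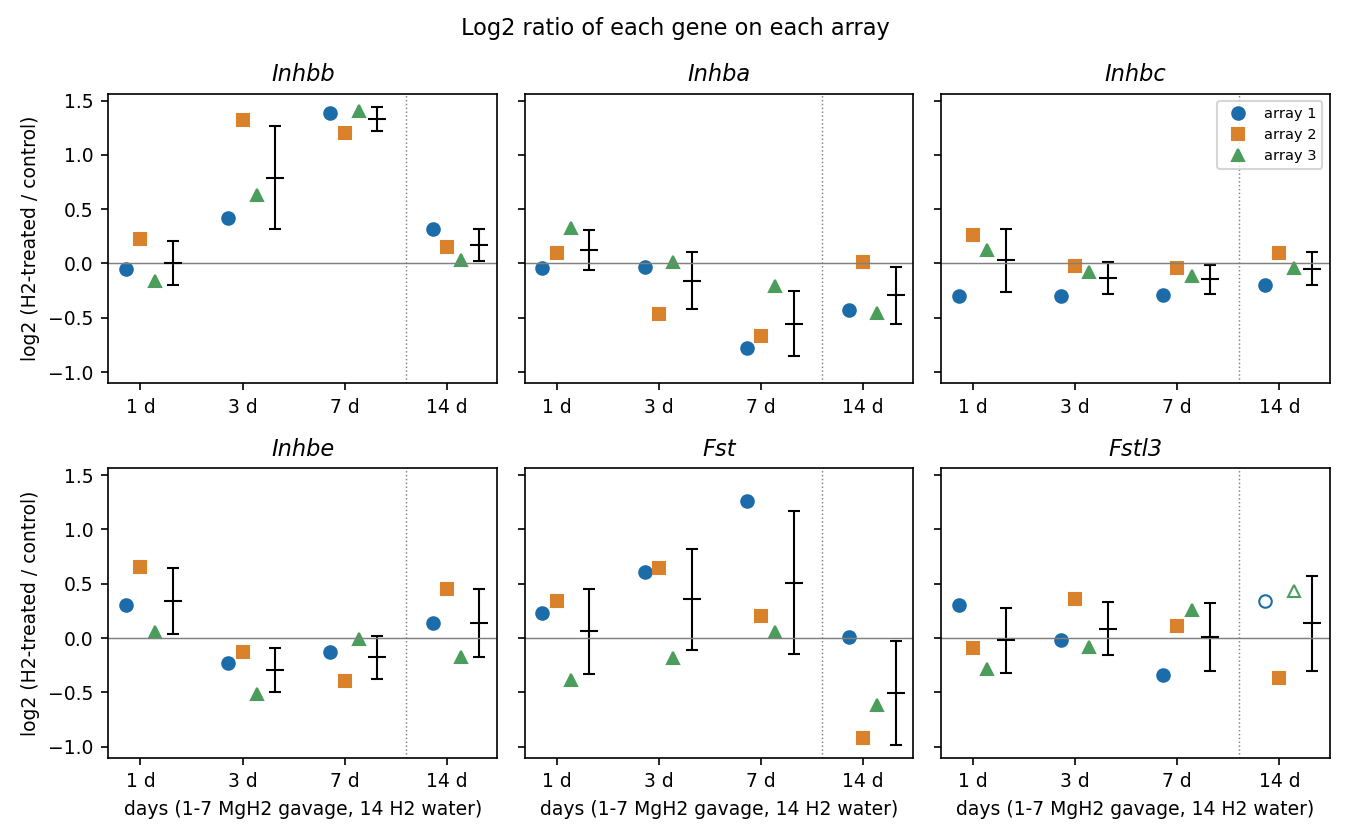
Log2 ratio of treated to control liver (vertical axis) on each array for the 6 genes, by day (horizontal axis: 1 to 7 days of MgH2 gavage, then 14 days of H2-water). Coloured symbols are the arrays numbered 1 to 3, open symbols are arrays with the probe not well above background in a channel, and black bars are the mean and SD. Inhbb climbs from about 0 at 1 day to between 1.20 and 1.41 at 7 days, Inhba is below 0 on all 3 arrays at 7 days, Inhbe is above 0 on all 3 arrays at 1 day and below it at 3 and 7 days, and Inhbc stays between -0.30 and 0.26.

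The signals of the channels show where the ratio of Inhbb moved. In Cy5, the treated livers, the processed signal was 116, 93.62 and 121 at 1 day, 167.4, 190.4 and 216.1 at 3 days, and 338.1, 182.6 and 328.9 at 7 days. In Cy3, the control livers, it was 120.4, 79.94 and 135.1 at 1 day, and within each array number it stayed between 120.4 and 129.3, 76.24 and 79.94, and 124.1 and 139.3 over the 3 gavage days. The arrays numbered 2 had the lowest control signal on each gavage day, and their treated signals were 190.4 at 3 days and 182.6 at 7 days. Over 18397 probes, Cy3 levels of the same number deviated together across the gavage days (r from 0.321 to 0.6702). Cy5 levels did not (r from -0.2962 to 0.1762), so a number is not read as 1 treated pool followed over time.

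Within each number, the log2 ratio of Inhbb at 7 days was above that at 1 day by 1.44, 0.98 and 1.56. The difference in scaled Cy5 level, the log2 signal relative to the 75th percentile of its channel, was 1.43, 1.02 and 1.38, and that in Cy3 level was -0.01, 0.03 and -0.19. From 3 to 7 days the ratio changed by 0.97, -0.12 and 0.77. The ratio was higher at 3 days than at 1 day on all 3 numbers (0.47, 1.09 and 0.79), and higher at 7 than at 3 days on 2 of 3.

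The arrays of 1, 3 and 7 days lay on 3 slides. On slide 1 the single 3-day array of Inhbb, at 0.42, lay above the 1-day mean of 0.01 over 3 arrays. On slide 2 the 2 arrays of 7 days had a mean of 1.30 and the 2 arrays of 3 days a mean of 0.98. The difference of 7 days from 1 day was 1.33 over all arrays and 0.73 with the slide as a block, which joins the days only through these within-slide differences. It was 0.91 after normexp background correction and loess normalization. The call at 3 days rested on the shared estimate of the spread, since the adjusted p was 0.09998 when only the 3-day arrays were fitted. It was at most 0.01771 without any 1 array number. The 3-day value itself fell from 0.79 to 0.52 without array 2 (adjusted p = 0.01711) and to 0.44 after normexp and loess (adjusted p = 0.006894).

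**Figure D2:**
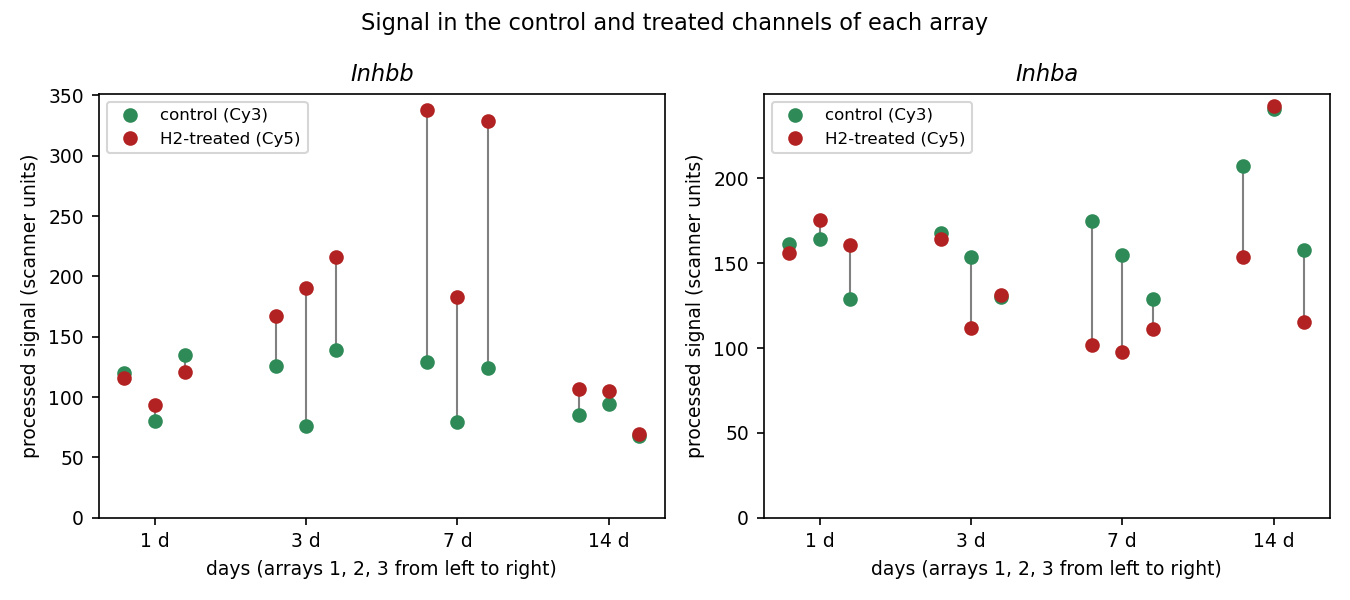
Processed scanner signal (vertical axis) of Inhbb and Inhba in the control channel (green, Cy3) and the treated channel (red, Cy5) of each array, by day, with the arrays numbered 1, 2 and 3 from left to right. The control signals of Inhbb at 1, 3 and 7 days repeat by array number, from 76.24 to 139.3, while its treated signals reach 338.1 at 7 days. Those of Inhba in treated livers fall to between 97.6 and 111.3 at 7 days.

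Markers of some cell types moved with the days as well. The 3 lists described here had the largest absolute r with Inhbb over the 12 arrays. The other lists had r of -0.58 (endothelial cell), -0.24 (stellate cell), -0.23 (cholangiocyte), 0.08 (pancreas acinar) and 0.06 (blood). The summed level of 7 adipocyte markers had log2 ratios from -0.68 to 1.77 at 1 day, -2.32 to -0.32 at 3 days, -2.50 to -0.48 at 7 days and 0.04 to 0.78 at 14 days, opposite in direction to Inhbb (r = -0.74 over 12 arrays that share controls, a description). The summed level of the 8 hepatocyte markers moved in the direction of Inhbb, with median log2 ratios of 0.10, 0.20, 0.27 and 0.01 at 1, 3, 7 and 14 days (r = 0.71). The single markers did not all follow. Alb, Ttr, Cyp2e1, Cps1 and Tat had higher mean ratios at 7 days than at 1 day (Alb 0.41 against 0.07). Apoa1 (0.14 against 0.38) and Serpina1a (0.09 against 0.16) had lower ones, and Fgb was below 0 at each day. Of the adipocyte markers, 2 (Cfd and Retn) were above background on all arrays, and the defining Adipoq, Plin1 and Lep were above it on none. The summed level of 8 Kupffer cell markers, all above background on all arrays, was -0.34 to -0.09 at 1 day, -0.44 to -0.35 at 3 days, -0.46 to -0.37 at 7 days and -0.20 to 0.23 at 14 days. Its single markers did not all follow either. Marco went the other way, with mean ratios of -0.61, 0.25, 0.30 and 0.08 at 1, 3, 7 and 14 days. In a whole liver, fewer cells of a type and less RNA per cell cannot be told apart. The part of these shifts in the values of Inhbb and Inhba was not tested.

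Inhba moved the other way. This gene encodes the A subunit, and its log2 ratio was -0.04, 0.10 and 0.32 at 1 day, -0.03, -0.46 and 0.01 at 3 days, -0.78, -0.67 and -0.21 at 7 days, and -0.43, 0.01 and -0.45 at 14 days. At 7 days it was below 0 on 3 of 3 arrays, with a mean of -0.55 ± 0.30 (SD, n = 3), a level 0.682 times that of the controls. The adjusted p was 0.0127 (SE 0.13, limma). At the other days the means were 0.12, -0.16 and -0.29 with adjusted p of 0.6106, 0.4266 and 0.2247.

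The call of Inhba at 7 days was lost without array 1 (-0.44, adjusted p = 0.09112), without array 2 (-0.50, adjusted p = 0.07139) and when only the 7-day arrays were fitted (adjusted p = 0.06425). After normexp and loess the value was -0.36 (adjusted p = 0.005465). Its Cy5 signal was 156.2, 175.4 and 160.8 at 1 day and 101.8, 97.6 and 111.3 at 7 days. These groups do not overlap, a description on the contrast behind the selection, and the control signals ran from 128.7 to 175 over both days. On slide 2, which held arrays of both days, the mean ratio was -0.22 at 3 days and -0.72 at 7 days (2 arrays each). The difference of 7 days from 1 day was -0.68 as a description.

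Inhbe, a hepatocyte gene for the E subunit, changed sign between days without passing the test at any. Its log2 ratio was 0.31, 0.66 and 0.06 at 1 day, -0.23, -0.13 and -0.52 at 3 days, -0.13, -0.39 and -0.01 at 7 days, and 0.14, 0.46 and -0.17 at 14 days. The 1-day arrays were all above 0 and the 3-day and 7-day arrays all below it. The means were 0.34 (adjusted p = 0.1449), -0.29 (adjusted p = 0.1492), -0.18 (adjusted p = 0.3544) and 0.14 (adjusted p = 0.5924). The difference of 3 days from 1 day was -0.63 (SE 0.19, adjusted p = 0.1704 over all probes tested). In the treated channel its signal was 4600, 5896 and 4224 at 1 day and 3584, 3637 and 3204 at 3 days.

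Inhbc, the other hepatocyte subunit gene, had the smallest range among the beta subunits. Its log2 ratio ran from -0.30 to 0.26 at 1 day, -0.30 to -0.02 at 3 days, -0.29 to -0.04 at 7 days and -0.20 to 0.10 at 14 days. The means were 0.03, -0.13, -0.15 and -0.05, with adjusted p of 0.8947, 0.3736, 0.3056 and 0.8261. Array 1 was the lowest of its day each time, at -0.30, -0.30, -0.29 and -0.20.

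Fst, the gene for follistatin, did not pass the test at any day. Its log2 ratio was 0.23, 0.35 and -0.39 at 1 day, 0.61, 0.65 and -0.18 at 3 days, and 1.26, 0.20 and 0.06 at 7 days. The means were 0.06, 0.36 and 0.51, with adjusted p of 0.9108, 0.3575 and 0.1721, and without array 1 those of 3 and 7 days were 0.23 and 0.13. At 14 days it was 0.01, -0.92 and -0.61, a mean of -0.51 (adjusted p = 0.2811). The groups of all days overlap, except that all arrays of 7 days lie above all of 14 days.

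Part of the spread of Fst lay in the control channel. Its Cy3 signal was 602.6 to 674.4 on the gavage arrays numbered 3 and 311.4 to 391.9 on those numbered 1 and 2, and array 3 had the lowest ratio on each gavage day. In Cy5 the signal was 411.7, 410.1 and 461.5 at 1 day, 519.6, 530.7 and 594.7 at 3 days, and 941.6, 357.8 and 657.2 at 7 days. The treated signals at 3 days therefore all lay above those at 1 day, and those at 7 days spanned both. At 14 days the control signal was 411.3, 812 and 401.6. The high control pool numbered 2 went with the lowest ratio of that day, -0.92.

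Fstl3 was dim on this array. Its signals were 13.34 to 20.22 on the gavage arrays, and at 14 days its probe was not well above background in Cy3 on 2 of 3 arrays. Its mean log2 ratios at 1, 3 and 7 days were -0.02, 0.09 and 0.01 with single arrays from -0.34 to 0.36, and the adjusted p values were 0.9556, 0.7495 and 0.9714. At 14 days the single values were 0.34, -0.37 and 0.44 and were not tested.

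**Figure D3:**
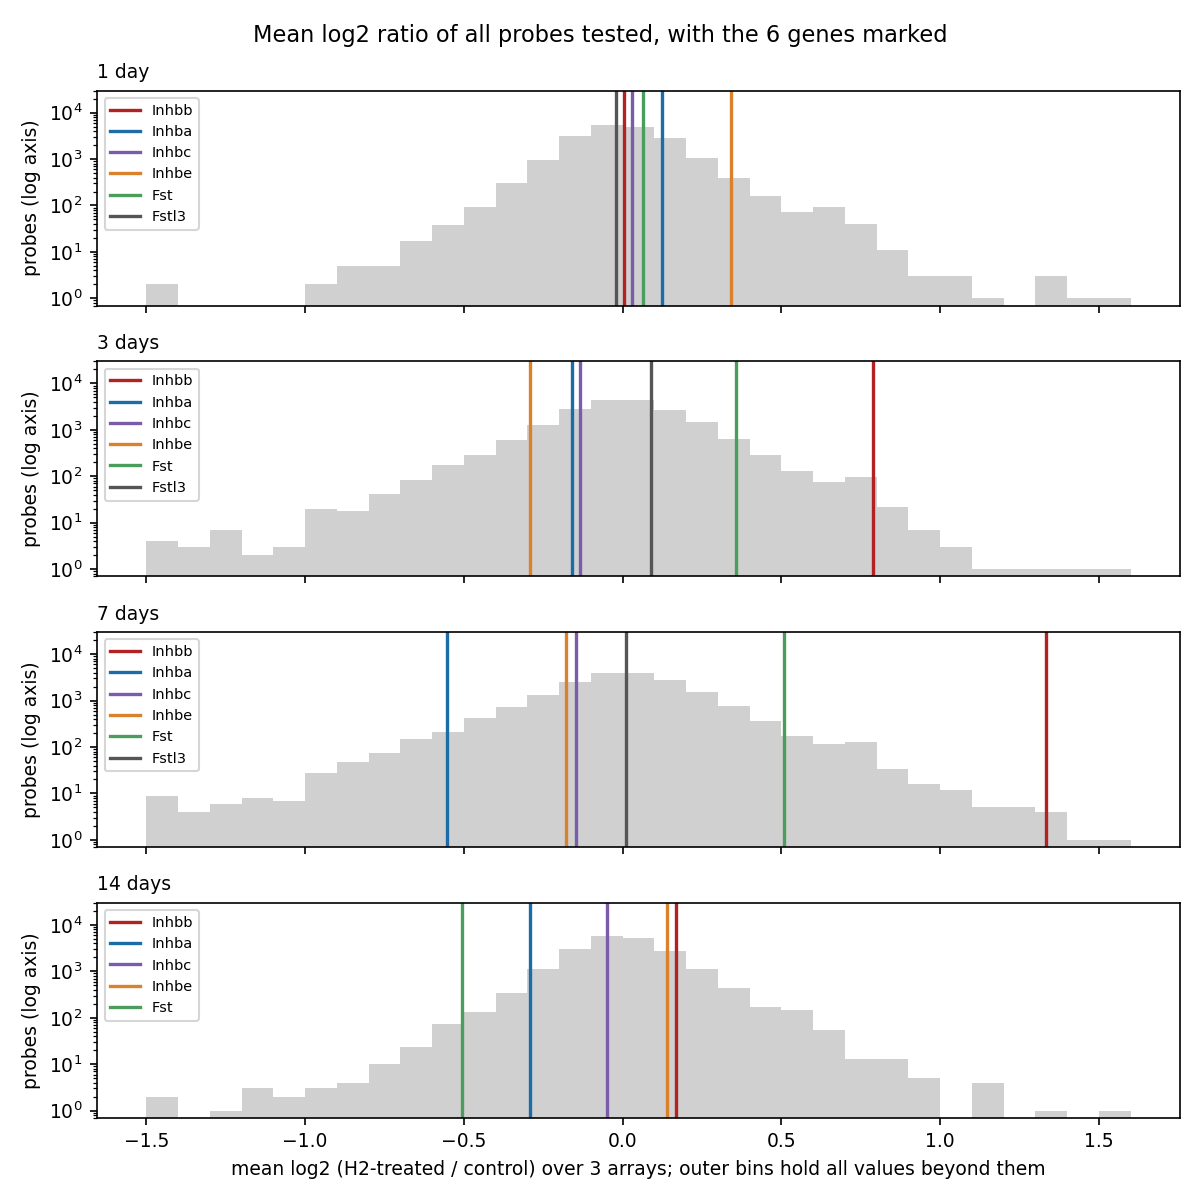
Number of probes (vertical log axis) by mean log2 ratio over 3 arrays (horizontal axis) at each day, for all probes tested, with lines at the means of the 6 genes (Fstl3 was not tested at 14 days). Inhbb lies within the bulk at 1 and 14 days and near the upper end at 3 and 7 days, at 0.79 and 1.33. Inhba lies at -0.55 at 7 days, and Inhbc and Fstl3 stay within 0.15 of 0 wherever they were tested.

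Counted over the members, 0 of 5 that could be tested were called at 1 day by limma (1 at an unadjusted p under 0.05, and 0 by the test of the study's methods), where 9.39% of all probes tested were called. At 3 days 1 of 6 was called, Inhbb, against 23.4% of all probes. At 7 days 1 of 5 was called, Inhba, against 29.5%, and at 14 days 0 of 5, against 8.84% (0 at an unadjusted p under 0.05, and 0 by the test of the study's methods). These shares of members do not exceed those over all probes, so the counts are no result about the members.

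Between days, 0 of 5 members without Inhbb differed between 3 days and 1 day by limma (1 at an unadjusted p under 0.05, Inhbe), where 0.0208% of all probes were called (4 of 19210, and 460 with the replicate block, which called 0 of these members). Between 7 and 3 days it was 0 of 5 (0 unadjusted), where 0% of 19087 probes were called (904 unadjusted). Between 14 and 7 days it was 0 of 4 (1 unadjusted, Fst), where 6.61% were called. Fst differed there by -1.02 (SE 0.37, adjusted p = 0.1216). The experiment and route of H2 differ between 14 and 7 days as well as the time. Between 7 days and 1 day 6.98% of all probes were called (1336 of 19153, and 3140 with the replicate block), and the differences of the members were 1.33 for Inhbb, 0.45 for Fst, 0.03 for Fstl3, -0.18 for Inhbc, -0.52 for Inhbe and -0.68 for Inhba.

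Other genes of the pathway were taken from 3 lists with 56 genes in all: receptors, Smads and regulators of activin signalling, a BMP and hepcidin list of target genes of BMP-type Smads in liver together with the ligands, co-receptor and protease that act before them, and targets of ATF4 and CHOP, which include factors known to act on Inhbe. At 1 day 5 of 43 tested genes were called, 3 higher and 2 lower (11.63%, against 9.39% of all probes). At 3 days it was 8 of 40, 6 higher and 2 lower (20%), and at 7 days 10 of 44, 7 higher and 3 lower (22.73%). At 14 days it was 3 of 39, 1 higher and 2 lower (7.692%). Between 7 days and 1 day it was 2 of 42, 1 higher and 1 lower (4.762%). The medians of the 3 lists together were 0.01, -0.09, 0.03 and -0.05 at 1, 3, 7 and 14 days. With the replicate number as a block the counts were 10 at 1 day, 13 at 3 days and 4 between 7 days and 1 day. With each channel divided by its total, the split was 3 higher and 3 lower at 3 days and 7 higher and 5 lower at 7 days. When only the arrays of a comparison were fitted, the counts were 0, 1, 4 and 1 at 1, 3, 7 and 14 days.

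Of the 30 genes of activin signalling, 2 of 20 tested were called at 1 day, 5 of 19 at 3 days, 6 of 21 at 7 days and 2 of 19 at 14 days. These shares (10%, 26.32%, 28.57% and 10.53%) were close to those of all probes (9.39%, 23.4%, 29.5% and 8.84%). Smad4, the partner of all activated receptor Smads, was higher at all 4 days. Its log2 ratio was 0.21 at 1 day (adjusted p = 0.006522), 0.37 at 3 days (adjusted p = 9.43e-05), 0.47 at 7 days (adjusted p = 1.329e-05) and 0.24 at 14 days (adjusted p = 0.002825). It was above 0 on all 12 arrays, from 0.15 to 0.51, and such a ratio can hold a dye effect of its probe. Its 1-day call was lost without array 2 (adjusted p = 0.05682). With only the arrays of a day fitted, the calls at 1, 3 and 14 days were lost (adjusted p = 0.2141, 0.05542 and 0.05742). The difference of 7 days from 1 day was 0.26 (adjusted p = 0.01794) and was not called with the slide as a block (0.19, adjusted p = 0.6979) or without any 1 array number (adjusted p from 0.07891 to 0.1326). Nor was it called with only the arrays compared fitted (adjusted p = 0.0814) or with no filter on dim probes (adjusted p = 0.0921). Smad2, which carries the activin signal, was lower at 1 day (-0.24, adjusted p = 0.04114). That call was lost without array 1 (-0.17, adjusted p = 0.2042), without array 2 (-0.23, adjusted p = 0.1737) and after normexp and loess (-0.15, adjusted p = 0.09825). It was also lost with only the 1-day arrays fitted (adjusted p = 0.2419) and with no filter on dim probes (adjusted p = 0.1185). Acvr1, a type I receptor of BMPs and activins, was lower at 7 days (-0.16, adjusted p = 0.02727) and at 14 days (-0.20, adjusted p = 0.02671). At 1 and 3 days it was -0.04 and -0.11 (adjusted p = 0.6619 and 0.1102). The 14-day call was lost without any 1 array (adjusted p from 0.08869 to 0.1876). It was also lost with only the 14-day arrays fitted (adjusted p = 0.07908) and with no filter on dim probes (adjusted p = 0.05834). Acvr2a, a type II receptor, was higher at 3 days (0.21, adjusted p = 0.04956, limma) and at 7 days (0.29, adjusted p = 0.01183). Its mean ratio was above 0 at all days and can hold a dye effect of its probe. Acvr2a is named here after its values were seen, and its calls were not followed over the alternatives. Inha, the alpha subunit, was not above background in both channels on any array.

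Wfikkn1, a secreted protein that binds GDF11 and myostatin, had the largest mean ratio at 7 days among the listed genes that were tested. It was 1.26, 1.34 and 1.11 on the 3 arrays, a mean of 1.24 (SE 0.12, adjusted p = 0.0001279). Its probe was dim, with control signals of 12.11 to 17.27 and treated signals of 30.6 to 39.25 at 7 days. It passed the filter only at that day, where its ratios were highest. Its p-value, its place among the tested genes and its part in the counts of called genes at 7 days therefore give no independent support. Its untested ratios were -0.04, 0.29 and -0.49 at 1 day and 0.85, 0.63 and 0.72 at 3 days. At 14 days they were -0.23, -0.08 and -0.46. After normexp and loess the 7-day mean was 0.26 (adjusted p = 0.0008436). Fgf21, a secreted hepatokine on the ATF4 and CHOP list, lay between 0.90 and 2.21 on the 3 arrays of that day but was not above background in both channels on any of them, and it is named here after its values were seen. Pmepa1, a target of activin Smads that also restrains them, was lower at 3 days (-0.34, adjusted p = 0.01154) and lower at 7 days than at 1 day by -0.43 (adjusted p = 0.0397). The first of these calls was lost without array 3 (-0.22, adjusted p = 0.07347) and the second without any 1 array number (adjusted p from 0.1215 to 0.2072). Both were lost after normexp and loess (-0.14 and -0.24, adjusted p = 0.074 and 0.06645) and with only the arrays compared fitted (adjusted p = 0.1164 and 0.08419). The second was lost as well with the slide as a block (adjusted p = 0.7661) and with no filter on dim probes (adjusted p = 0.1196).

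In the BMP and hepcidin list of 13 genes, 2 of 13, 2 of 13 and 2 of 12 tested genes were called at 1, 3 and 7 days. These shares (15.38%, 15.38% and 16.67%) compare with 9.39%, 23.4% and 29.5% of all probes. The called genes were Bmp6 and Tmprss6 each time, both of which act before the Smads. At 14 days 0 of 11 were called, against 8.84% of all probes, and Bmp6 was not tested. The median log2 ratio of this list was 0.34, -0.13, 0.30 and 0.01 at 1, 3, 7 and 14 days, with that of all probes tested between -0.00491 and 0.00609, and Id1, Id2, Id3 and Smad7 did not pass the test at any day. Bmp6, the BMP that drives hepcidin in liver, was higher at 1, 3 and 7 days (0.53, 0.65 and 0.55, adjusted p = 0.00627, 0.00102 and 0.001516). Tmprss6, a protease that lowers hepcidin, was lower at the same days (-0.23, -0.24 and -0.23, adjusted p = 0.003357, 0.001178 and 0.001053). After normexp and loess, Bmp6 was still called at these days, at the smaller values of 0.19, 0.18 and 0.19. Its probe was dim, and at 14 days it was not above background on 1 of 3 arrays and so not tested, with ratios of 0.72, 1.04 and 0.83. The ratios of Bmp6 were thus above 0 on all 12 arrays, and the gavage days share controls. Those of Tmprss6 were below 0 on all 12, with a mean of -0.09 at 14 days (adjusted p = 0.124). For both genes, ratios alike in sign at all days can hold a dye effect of the probe. With only the arrays of a day fitted, the calls of Bmp6 were lost at 1 and 7 days (adjusted p = 0.08583 and 0.0519). Those of Tmprss6 were lost at 1 and 3 days (adjusted p = 0.1984 and 0.07494). Hamp itself varied too widely for a call, with log2 ratios of 2.31, 0.37 and -0.24 at 1 day, 1.15, -1.38 and -1.23 at 3 days, and 1.66, 0.28 and 0.58 at 7 days (adjusted p = 0.6703, 0.7671 and 0.5752). At 14 days its values were -1.61, 3.90 and -2.33 (adjusted p = 0.9955). Hamp was chosen here after its values were seen.

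The ATF4 and CHOP list holds Atf4, the factor, beside targets. Of its tested genes, 1 of 11, 1 of 9, 2 of 12 and 1 of 10 were called at 1, 3, 7 and 14 days (9.39%, 23.4%, 29.5% and 8.84% of all probes). Atf4 was higher at the 3 gavage days (0.34, 0.37 and 0.34, adjusted p = 0.000644, 0.0002803 and 0.0002962), with all 9 arrays between 0.28 and 0.41. No other gene of the list was called higher at any day. At 14 days Atf4 was at 0.14 (adjusted p = 0.05465). Its ratio, above 0 at all days, can hold a dye effect of its probe. Its calls at 1 and 3 days were lost when only the arrays of that day were fitted (adjusted p = 0.1669 and 0.05542). Gdf15, a secreted stress factor, was lower at 7 days. Its ratio was -1.05, -0.50 and -1.19 there, a mean of -0.91 (SE 0.22, adjusted p = 0.01177), and the call was lost without array 1 (-0.85, adjusted p = 0.06753) and without array 3 (-0.78, adjusted p = 0.08505). Asns, which makes asparagine, was lower at 14 days (-0.76, adjusted p = 0.03769), with values of -0.70, -0.66 and -0.92, a call lost without any 1 array (adjusted p from 0.122 to 0.2019). After normexp and loess its mean was -0.30 (adjusted p = 0.01899), and with no filter on dim probes the adjusted p was 0.05304.

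**Figure D4:**
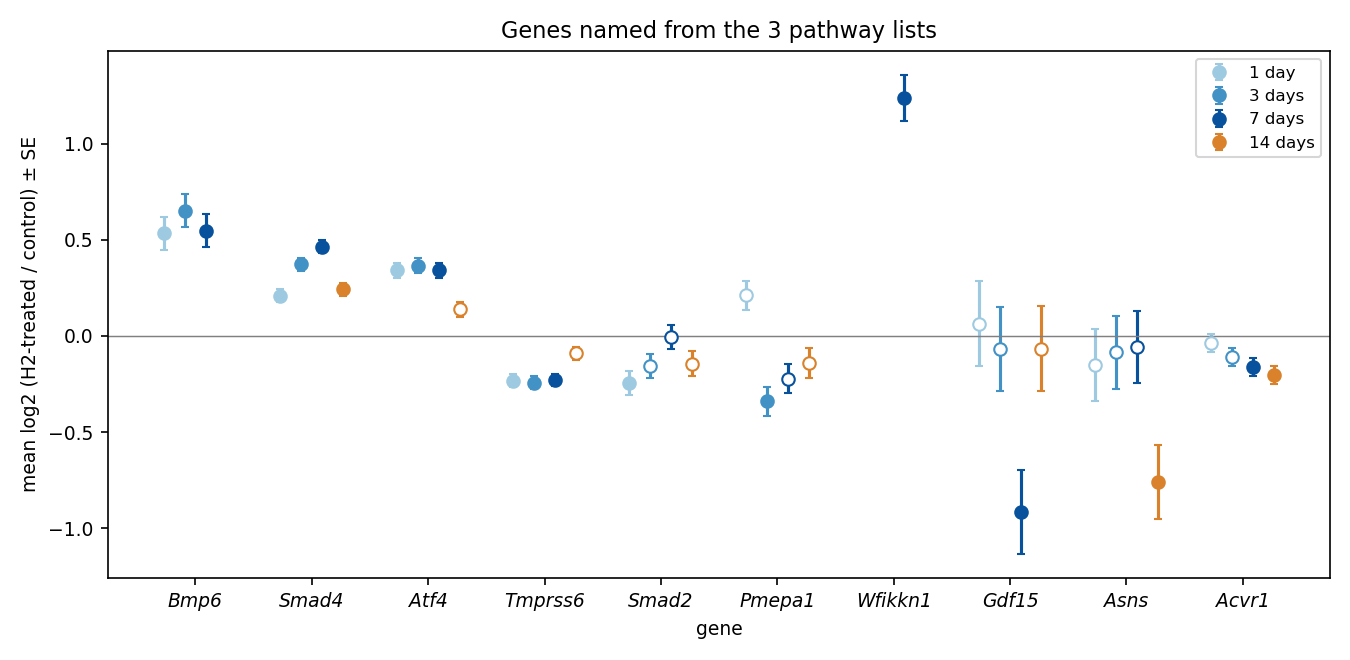
Mean log2 ratio of treated to control (vertical axis, bars are the standard error) at 1, 3, 7 and 14 days for the 10 pathway genes named by rule (horizontal axis). Filled symbols passed the test and open ones did not, and days at which a probe was not above background are left out. Bmp6, Smad4 and Atf4 lie above 0 and Tmprss6 below it at all days shown, while Wfikkn1 is at 1.24 and Gdf15 at -0.91 at 7 days. Wfikkn1 passed the filter only at 7 days, where its ratios were highest, so its filled symbol gives no independent support. Ratios alike in sign at all days can hold a dye effect of the probe.

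The genes whose ratio followed Inhbb most closely over the 12 arrays were Mapk6 (r = 0.967), Cyp2j9 (r = 0.966), Heca (r = 0.963), Zfp512b (r = 0.957) and Slc25a46 (r = 0.953), among 11568 genes above background on all arrays. The arrays of a day and the controls of a number are shared, so these values are a description. Mapk6 encodes a mitogen-activated protein kinase and Cyp2j9 a cytochrome P450. Cyp2j9 came closest to Inhbb in size, with means of 0.04, 0.52, 0.92 and 0.04 at 1, 3, 7 and 14 days, and Mapk6 had means of 0.09, 0.25, 0.33 and 0.12. On the 9 gavage arrays alone, r was 0.96 for Mapk6 and 0.963 for Cyp2j9.

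**Figure D5:**
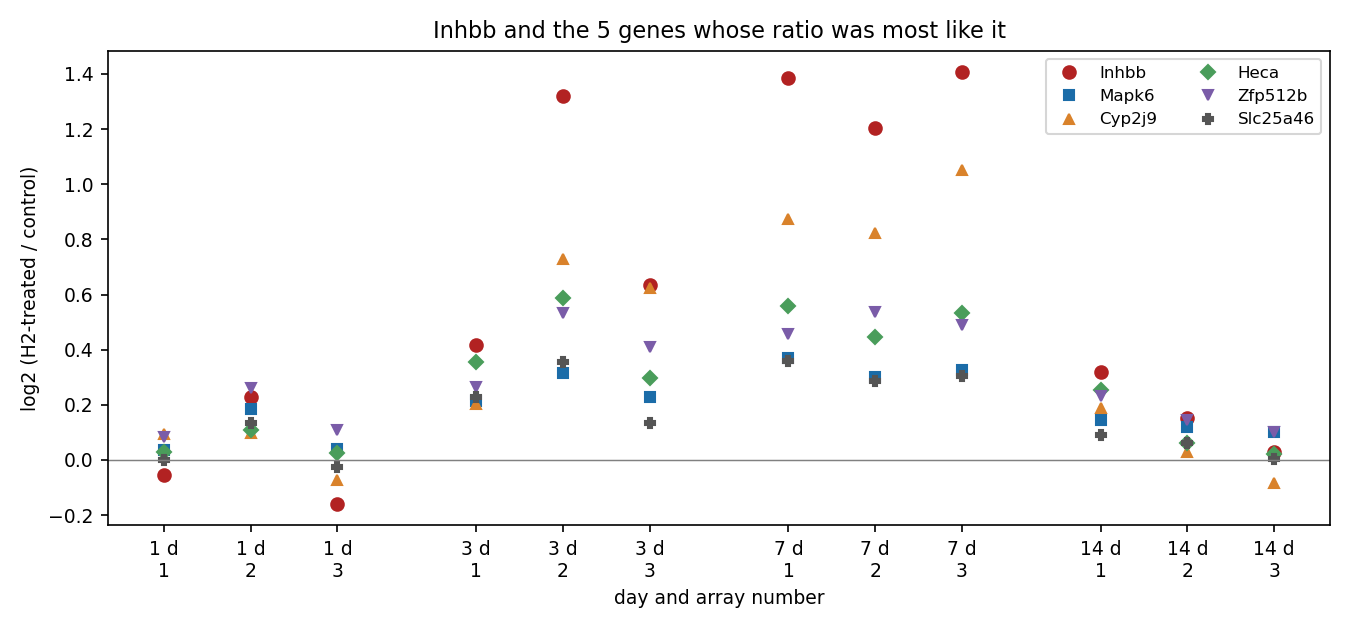
Log2 ratio of treated to control (vertical axis) on the 12 arrays (horizontal axis, by day and array number) for Inhbb and the 5 genes with the highest correlation to it. All 6 genes have their highest mean at 7 days. At 3 days, array 2 is the highest for each, with 1.32 for Inhbb and 0.73 for Cyp2j9.

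Among the members themselves, the ratio of Inhbb had r = 0.59 with Fst, -0.66 with Inhba, -0.47 with Inhbe, -0.25 with Inhbc and 0.08 with Fstl3 over the same 12 arrays, again as a description.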

How the data were processed

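Livers of male db/db mice were measured on 12 two-colour Agilent arrays, with control RNA in Cy3 and treated RNA in Cy5. The intensity values used (processed signals of both channels) are background-corrected and dye-normalized within each array, as the authors deposited them from Feature Extraction 10.10.1.1 (gavage) and 10.7.3.1 (14 days). The raw median intensities and local backgrounds that the authors deposited served for normexp with an offset of 50, followed by loess. The log10 ratio that the authors deposited equals the ratio of the processed intensities wherever both stood above background, as do the log2 values of the deposited table (largest difference 1.4e-06). The array design names mm9, and no coordinates were taken from it.

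Control spots and spots that the software marked as non-uniform or outlying (160 to 244 per array) were left out, and log2 ratios of a probe's spots were averaged. Symbols came from RefSeq records (26761 of 39429 probes, 67.87%). A gene with several probes is given by the brightest. All 12 arrays were fitted in R 4.3.3 (limma 3.58.1) as 4 group means. Tests were two-sided against 0 or between groups, with Benjamini-Hochberg adjustment over the probes well above background in each dye on every array entering a comparison, and calls at an adjusted p under 0.05. The fit was tested on simulated data. The number of arrays limits the precision.

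Within 1, 3 and 7 days, array ratios of the same number deviated together (r from 0.3676 to 0.6548 over 9 pairs), so the numbers pair these arrays. The main fit left this pairing out, and the replicate block uses it. Their correlation with 14 days ran from -0.04088 to 0.2881, and those arrays were not taken as paired. Pathway genes named are, per comparison, up to 5 called genes with the largest absolute log2 value. Named beside them are all members, cell type markers and the 5 genes with the highest r to Inhbb. Members and lists were chosen with earlier results of these data known. Nothing in the labels says how pools were drawn beyond their numbers, so p-values measure the spread between pools. The alternatives are the scalings, background correction, filter, spots, samples fitted, slide and replicate blocks, left-out arrays and the methods' t-test. Per-array p-values of Feature Extraction were not used.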

Additional observations from a re-analysis of the deposited data

Results flagged for a closer look

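The ratio of Inhbe was above 0 on all 3 arrays at 1 day and below 0 on all 3 at both 3 and 7 days. The mean at 3 days was lower than at 1 day by -0.6328 on the log2 scale, and limma's test of this difference did not pass (adjusted p = 0.1704, and 0.1166 to 0.6481 over 12 alternatives). The mean at 7 days was lower than at 1 day by -0.5195. This second difference was not tested, because the family was chosen on that contrast. Both rest on the same 1-day arrays, and the gavage days share controls.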

How the results depend on the processing

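Over the alternatives, 0 values changed sign with a call, and 732 of the 786 values of single genes kept their side of the threshold or stayed within the spread between arrays. The difference of Inhbb between 7 days and 1 day was 1.328. It was 0.9075 with normexp and loess and 0.7308 with the slide as a block, and 1.209 to 1.503 when an array number was left out. The count of members called at 3 days fell from 1 to 0 when only the arrays compared were fitted and by the methods' t-test after Benjamini-Hochberg adjustment. At 7 days it fell from 1 to 0 under the same alternatives and was 0 to 1 over the left-out array numbers. With the replicate block, 1 member (Fst, adjusted p = 0.03578) was called between 14 and 7 days and no other member call changed. Those days are not paired, so the blocked value is given here alone.

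Counts of pathway genes moved more. At 1 day the 5 became 0 with only the arrays compared, 10 with the replicate block, 0 with the adjusted t-test and 3 to 6 without an array number. At 3 days the 8 became 1, 13 and 0 in the same order, 5 with the unadjusted t-test and 5 to 6 without a number. At 7 days the 10 became 4 with only the arrays compared, and 6 and 0 with the unadjusted and adjusted t-test. At 14 days the 3 became 5 with normexp and loess, 1 with only the arrays compared, 5 and 0 with the t-test, and 1 to 2 without a number. Between 7 days and 1 day the 2 became 1 with no filter on dim probes, 0 with only the arrays compared, 0 with the slide block, 4 with the replicate block and 0 to 1 without a number. With only the arrays of a comparison fitted, the spread is estimated from fewer arrays. The other causes were not tested. Another probe of a member could not be tried, since each has 1. Slide could not be a block between 14 and 7 days, which share none. At low signal, as for Fstl3, the ratio is limited by the distance to background.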
